A study of Mus musculus with 24 samples.

Results

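Young hearts lacking a pair of executioner caspases, the proteases that cut cellular proteins during apoptosis, were compared with wild type (WT) hearts of the same age. The comparison took the 6 double knockout (KO) and 6 WT arrays labelled P30, so 12 of the 24 arrays of the series. The other 12 were 6 KO and 6 WT arrays of newborn hearts, taken within days of birth. They served for the newborn differences, also KO minus WT, and for the difference between ages. Each P30 array held RNA from ventricle tissue, described as cardiac muscle of C57/Bl6 mice at 1 month of age. In the KO animals one caspase was deleted in the whole body, and the floxed gene of the other was cut by a Cre recombinase under the cardiac control region of Nkx2.5. Cells outside the reach of that Cre kept the floxed gene. The sources used here do not say whether WT animals carried the Cre or floxed alleles. The paper reports that Cre did not alter the key genes it checked. Sex, although balanced in the groups, was not given for each array. All 18819 genes represented by a probe set naming a single gene were tested, with none chosen for its role. The deleted genes themselves are not analysed here, so the signals did not check the genotype labels.

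Executioner caspases also act without killing the cell, by cutting transcription factors, kinases and structural proteins in cells that go on to differentiate. The heart muscle cell loses most of its apoptotic machinery after birth, leaves the cell cycle and grows by enlarging its contractile apparatus. Heart tissue also answers hormones, stress and innate immune sensing through early response factors, glucocorticoid-responsive genes and interferon-stimulated genes.

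Array medians lay between 4.24 and 4.5 on the log2 scale, highest in KO array 4, and 0 of 66 pairs were identical. The mean correlation with the other arrays of the group was 0.987 for WT array 2 and 0.988 for KO array 3. It was 0.991 to 0.993 for the rest. The ventricular markers Myl2 and Myl3, the light chains of ventricular myosin, read 12.4 to 12.6 and 12.5 to 12.7 in all 12 arrays. Atrial transcripts were present too and varied widely. The mean log2 signal of 14 atrial markers was 6.17, 6.23, 6.33, 6.64, 7.88 and 8.89 in WT ventricles and 6.56, 7.97, 8.53, 8.70, 9.34 and 9.45 in KO ventricles. The difference of 1.40 did not pass an exact two-sided permutation test (p = 0.0541), and the groups overlapped through WT arrays 2 and 5 and KO array 3. Without WT array 2, WT array 5 or KO array 3 the difference was 1.78 (p = 0.0152), 1.57 (p = 0.0498) and 1.77 (p = 0.0238) by the same exact test, and without each of the other 9 arrays it was 1.2 to 1.49 (p 0.0671 to 0.104). Values below are therefore also given with this mean as a covariate where it ends a call. In tissue of mixed cells, fewer cells of a type and less RNA per cell cannot be told apart.

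At one month, 10 genes rose and 9 fell in KO hearts at an adjusted p under 0.05 in limma, a linear model that shares information on the spread between genes. These 19 were 0.101% of the genes tested (0.0531% higher and 0.0478% lower), and in each of them no KO array reached the range of the WT arrays. Such a separation was seen for 155 genes in all (0.824%), 79 with KO above and 76 with KO below. At an unadjusted p under 0.05 there were 2093 genes (11.1%), 1438 higher (7.64%) and 655 lower (3.48%), and the median log2 difference over all genes was 0.033. This excess of higher values depended on the scaling, because centring each array on its median gave 733 higher and 1218 lower, a new quantile normalization gave 1018 and 1322, and leaving out KO array 4 gave 966 and 1031. The number of called genes ran from 10 (without KO array 1 or 6) to 78 (without KO array 3), and it was 51 and 29 without WT arrays 2 and 5. In the following, 3 signals in a row are the lowest, median and highest log2 signal of the 6 arrays of a group, and differences are KO minus WT on the log2 scale with the standard error (SE) and limma's adjusted p.

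**Figure D1:**
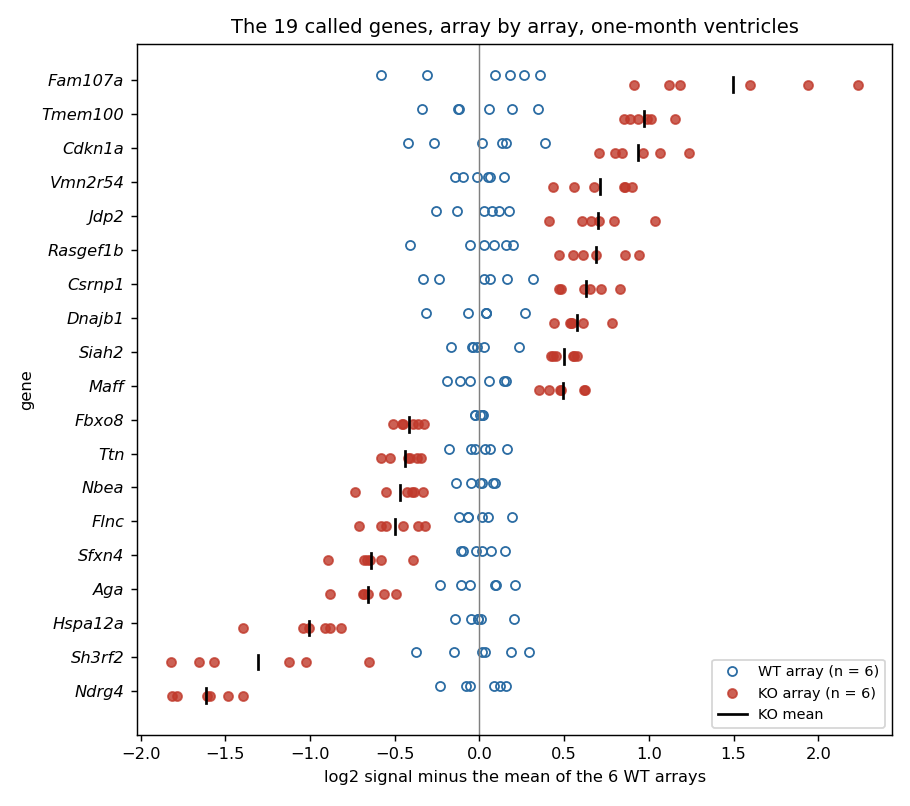
Log2 signal of each of the 19 called genes (rows, ordered by difference) in 6 WT arrays (open circles) and 6 KO arrays (filled circles), relative to the mean of the WT arrays, with the KO mean as a black bar. The groups are separated in each row, from Ndrg4 with a mean difference of -1.61 to Fam107a with 1.5.

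Ndrg4, an N-myc downstream-regulated gene that is abundant in heart and brain and is linked to growth of heart muscle, had the clearest difference. It read 10.22, 10.47 and 10.61 in WT and 8.64, 8.85 and 9.06 in KO hearts. The lowest WT array was thus more than 1 log2 unit above the highest KO array. The difference of -1.61 (SE 0.092, adjusted p = 9.08e-07) is a 3.06-fold lower signal. Sh3rf2, a ubiquitin ligase with SH3 domains that restrains stress kinase signaling, had the next largest fall, at 9.05, 9.44 and 9.71 in WT against 7.60, 8.07 and 8.77 in KO hearts. Its KO arrays were spread more widely, with KO array 6 the nearest to WT, and it fell by 1.31 (SE 0.18, adjusted p = 0.00968). Prelid2, of the family of mitochondrial lipid carriers, lies 2 tested genes from Sh3rf2 and had a difference of -0.62 that did not pass (SE 0.14, adjusted p = 0.13). The 5 tested genes on either side of Ndrg4 had differences between -0.13 and 0.14.

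The other falling genes served protein folding, lysosomes, mitochondria and muscle structure. Hspa12a, a distant member of the heat shock protein 70 family, read 7.59, 7.73 and 7.94 in WT and 6.34, 6.78 and 6.92 in KO hearts, a difference of -1.01 (SE 0.096, adjusted p = 0.000424). Aga, the lysosomal enzyme that cleaves sugar from asparagine, read 7.23, 7.48 and 7.67 against 6.58, 6.80 and 6.97, a difference of -0.66 (SE 0.089, adjusted p = 0.00869). Sfxn4, an inner mitochondrial membrane protein needed for respiratory complex I, read 6.49, 6.60 and 6.75 against 5.71, 5.95 and 6.21, a difference of -0.64 (SE 0.083, adjusted p = 0.00704). In the fit of all 24 arrays, where the spread is shared with newborns, Sfxn4 was not called (SE 0.21, adjusted p = 0.137). None of these ranges overlapped between the genotypes. Fbxo8, a substrate receptor of a ubiquitin ligase, had the tightest WT values of the set, at 9.35, 9.39 and 9.40, and 8.87, 8.95 and 9.05 in KO hearts. Its modest fall of 0.42 on the log2 scale (SE 0.058, adjusted p = 0.00968) lost its call with the atrial mean in the fit, at the same size of -0.42 (SE 0.075, adjusted p = 0.107), and with the mean of its probe sets (adjusted p = 0.23). Ndrg4, Aga and Fbxo8 lie on chromosome 8, and Hspa12a and Sfxn4 on chromosome 19. Dnajb1, a called gene that rose, lies on chromosome 8 as well. Some near neighbours also differed without being called, here and near other called genes such as Fbxo8 and Hspa12a. Those given next are examples. Over all genes, 0.824% did not overlap between the genotypes and 11.1% had an unadjusted p under 0.05. Near Sfxn4, Zfp950 fell by 0.26 without overlap (adjusted p = 0.19), Grk5 by 0.33 (0.30), and Dennd10 rose by 0.27 (0.203). Near Aga, Asb5 fell by 0.51 (0.292) and Cldn22 rose by 0.38 (0.227).

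The other 3 genes that fell were Ttn, Flnc and Nbea. Ttn, the giant spring of the sarcomere, read 11.16, 11.34 and 11.50 in WT against 10.76, 10.92 and 10.99 in KO hearts, and fell by 0.44 (SE 0.073, adjusted p = 0.0308). With the mean of its probe sets the difference was -0.33 and was not called (adjusted p = 0.413). Flnc, the muscle filamin that crosslinks actin at the Z-disc, read 10.26, 10.36 and 10.58 against 9.67, 9.89 and 10.06, and fell by 0.50 (SE 0.082, adjusted p = 0.0308). Nbea, or neurobeachin, a membrane trafficking protein that also anchors protein kinase A, read 7.52, 7.67 and 7.75 against 6.93, 7.25 and 7.33, and fell by 0.47 (SE 0.079, adjusted p = 0.0317). Each of these 3 calls depended on single arrays. Ttn lost its call without any one of WT arrays 1, 3, 4 or 6 or KO arrays 1, 2, 5 or 6 (adjusted p 0.0565 to 0.0936), Flnc without WT 1, 4 or 6 or KO 1, 2, 4 or 6 (0.0753 to 0.0936), and Nbea without WT 1, 3, 4 or 6 or KO 1, 4, 5 or 6 (0.0552 to 0.0949). Adding the atrial mean to the fit gave an adjusted p of 0.244 for Ttn, 0.236 for Flnc, 0.0638 for Nbea and 0.107 for Sh3rf2, with differences of -0.38, -0.44, -0.55 and -1.06.

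Neurobeachin is one of 36 measured genes of kinase anchoring and cyclic AMP signaling, the path by which adrenaline reaches calcium channels and contractile proteins. Of these, 7 were lower and 1 higher at an unadjusted p under 0.05, and Nbea alone was called. Over all genes 3.48% were lower and 7.64% higher, and 0.101% were called. The median was -0.051, against 0.033 over all genes. Akap5, which docks the kinase at the plasma membrane, read 6.12, 6.32 and 6.56 in WT and 5.18, 5.59 and 6.06 in KO hearts, without overlap, at a difference of -0.76 that missed the threshold (SE 0.14, adjusted p = 0.0708). Akap6, the anchor at the nuclear envelope, had a difference of -0.29 (SE 0.076, adjusted p = 0.186), and Lrba, a relative of neurobeachin, one of -0.26 (SE 0.082, adjusted p = 0.275). Among 41 sarcomere and Z-disc genes, 9 were lower and 4 higher at an unadjusted p under 0.05, with Ttn and Flnc called. Among 24 genes of the dystrophin complex and the costamere, which tie the sarcomere to the membrane, 5 were lower and 0 higher, and Dmd, dystrophin itself, had a difference of -0.38 that did not pass. Apart from the called genes these are values below the threshold.

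Of the rising genes Tmem100 had the smallest p. It encodes a membrane protein of vascular endothelium that is induced by bone morphogenetic proteins (BMP) through the receptor ALK1. Its signal was 7.07, 7.37 and 7.75 in WT and 8.26, 8.37 and 8.56 in KO hearts, so the KO arrays were both higher and closer together. The difference was 0.97 (SE 0.11, adjusted p = 0.00146), and it was called with the atrial mean in the fit as well (0.85, SE 0.12, adjusted p = 0.0195). Of 41 measured genes of BMP and TGF beta signaling, Tmem100 was the 1 called, while 10 (24.4%, against 7.64% of all genes) were higher and 0 lower at an unadjusted p under 0.05 and the median was 0.22. Other recognized targets of this path had smaller values that did not pass. Id1, an inhibitor of DNA-binding helix-loop-helix factors, differed by 0.34 (SE 0.077, adjusted p = 0.119), with KO arrays at 8.02 to 8.38 and WT arrays at 7.72 to 8.0. Atoh8, a transcription factor of endothelium, differed by 0.48 (SE 0.14, adjusted p = 0.246) and Smad6, the inhibitory Smad of the path, by 0.39 (SE 0.13, adjusted p = 0.295). The ligand Bmp6 differed by 0.38 (SE 0.12, adjusted p = 0.293). Bmp10, a ligand made by atrial muscle and one of the 14 atrial markers, had the highest difference of the list at 2.22 (SE 1.1) and was not called, with KO arrays 2 and 5 at 10.29 and 8.95, while the other 10 arrays read 2.99 to 3.82. After adding the atrial mean, 2 of the 41 were higher at an unadjusted p under 0.05 and the median was 0.079. Endothelial markers as a list had a median of 0.13, with 8 of 28 higher and 2 lower at an unadjusted p under 0.05 and 0 called, and their part in the rise of Tmem100 was not tested.

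Cdkn1a, Fam107a and Jdp2, which each restrain growth, rose together. Cdkn1a encodes p21, the inhibitor of cyclin-dependent kinases. It read 8.86, 9.35 and 9.67 in WT and 9.99, 10.18 and 10.52 in KO hearts, and rose by 0.94 (SE 0.13, adjusted p = 0.0107). Fam107a, an actin-binding and growth-restraining protein of stressed tissue, had the widest KO range, at 4.45, 5.17 and 5.38 in WT and 5.94, 6.42 and 7.26 in KO hearts. KO arrays 1 and 2 were the highest at 6.97 and 7.26. It rose by 1.5 (SE 0.22, adjusted p = 0.0149), or 2.82-fold. Jdp2, a leucine zipper protein that dimerizes with Jun and represses its targets, read 6.00, 6.31 and 6.44 against 6.67, 6.94 and 7.30, and rose by 0.70 (SE 0.10, adjusted p = 0.0149). Fos, which lies next to Jdp2 among the tested genes, had no such pattern, with overlapping values and a difference of -0.50 (SE 0.36, adjusted p = 0.629). Fam107a and Jdp2 lost their calls without KO array 1 or 6 (adjusted p 0.0501 to 0.0602 and 0.0501 to 0.0610), and with the atrial mean the adjusted p was 0.13 for Cdkn1a, 0.15 for Fam107a and 0.152 for Jdp2, at differences of 0.77, 1.28 and 0.57. Of 25 genes of cell cycle inhibition and p53 response these 3 were called, and the list as a whole had 4 higher (16.0%) and 3 lower at an unadjusted p under 0.05, where all genes had 7.64% and 3.48%, with 0.101% called. This list, like the others here, was written with earlier results of these data known, and it includes Fam107a and Jdp2. Its count of calls is therefore no independent support. Mdm2, the p53 target that degrades p53, differed by 0.21 (SE 0.083, adjusted p = 0.371). Of 34 genes of cell division 0 were called and 0 had an unadjusted p under 0.05. Of their differences 6 were positive, and the median was -0.14, or -0.26 with the atrial mean, against 0.033 over all genes without it. The arrays were widely spread, with list means of 5.43 to 6.06 in WT and 5.03 to 5.86 in KO hearts.

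Cdkn1a and Fam107a belong to a list of 24 glucocorticoid-responsive genes as well. Glucocorticoids are adrenal hormones that enter cells, bind their receptor and activate genes for metabolism, clock setting and restraint of inflammation. Of the list, 2 were called, 13 (54.2%) were higher and 0 lower at an unadjusted p under 0.05, against 7.64% and 3.48% of all genes, and 22 of 24 differences were positive. The median difference was 0.40, against 0.033 over all genes. Array by array, the mean log2 signal of the list was 7.12, 7.18, 7.26, 7.26, 7.46 and 7.5 in WT and 7.56, 7.59, 7.72, 7.80, 7.82 and 8.07 in KO hearts, so these means did not overlap. They include the called Cdkn1a and Fam107a, which were separated on their own, and the list was written with earlier results known. The gap between the groups is therefore no independent support for the list. With the atrial mean in the fit 10 of the 24 were higher at an unadjusted p under 0.05, 0 were called and the median was 0.27.

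Among its members, Fkbp5, a chaperone that dampens the glucocorticoid receptor, read 4.84, 5.14 and 5.65 in WT and 5.39, 6.04 and 6.88 in KO hearts, a difference of 0.92 (SE 0.21, adjusted p = 0.126). Per1, a repressor of the circadian clock that the hormone also induces, read 6.55, 7.24 and 7.75 against 7.62, 8.12 and 8.42, a difference of 0.87 (SE 0.20, adjusted p = 0.119). Mt2, a metal-binding metallothionein, read 8.18, 8.52 and 9.07 against 8.90, 9.24 and 9.93, a difference of 0.84 (SE 0.18, adjusted p = 0.0967). In all 3 the groups overlapped slightly at their edges. Errfi1, an inhibitor of the EGF receptor, and Klf9, a transcription factor, did not overlap between the genotypes, with differences of 0.63 (SE 0.14, adjusted p = 0.126) and 0.42 (SE 0.090, adjusted p = 0.0978). Ddit4, an inhibitor of the growth kinase mTOR, and Sgk1, a kinase of salt and cell survival signaling, differed by 0.61 (SE 0.15, adjusted p = 0.153) and 0.41 (SE 0.11, adjusted p = 0.207). The receptor gene Nr3c1 itself differed by -0.17 (SE 0.085, adjusted p = 0.47). Of 19 clock genes 3 were higher and 2 lower at an unadjusted p under 0.05, where 7.64% and 3.48% of all genes were. The time of day at which hearts were taken is not given in the sources used here, and its part in these values was not tested.

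The promoter of Fam107a is shown because it is the called member of this list that holds a match to a spaced glucocorticoid response element, searched on both strands as ACANNNTGTNCT in the 250 bases before the start. This motif was in 1.08% of all 32851 promoter windows. Counted by gene, it was in 1.27% of all genes with a window and in 3 of 20 such list members (Sgk1, Fam107a and Lcn2). Fam107a had 3 different windows, and the first that holds a match is printed. The match is in capitals and ends 104 bases before the start of transcription that belongs to this window. Sequences are those of RefSeq on GRCm38.p6, written 5′ to 3′ along the gene.
Fam107a (chr14:8309780-8310029, minus strand): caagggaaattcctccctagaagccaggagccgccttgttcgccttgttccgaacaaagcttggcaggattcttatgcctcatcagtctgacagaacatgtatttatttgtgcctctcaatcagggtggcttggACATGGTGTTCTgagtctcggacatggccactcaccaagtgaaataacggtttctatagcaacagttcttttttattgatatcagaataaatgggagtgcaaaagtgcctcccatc

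**Figure D2:**
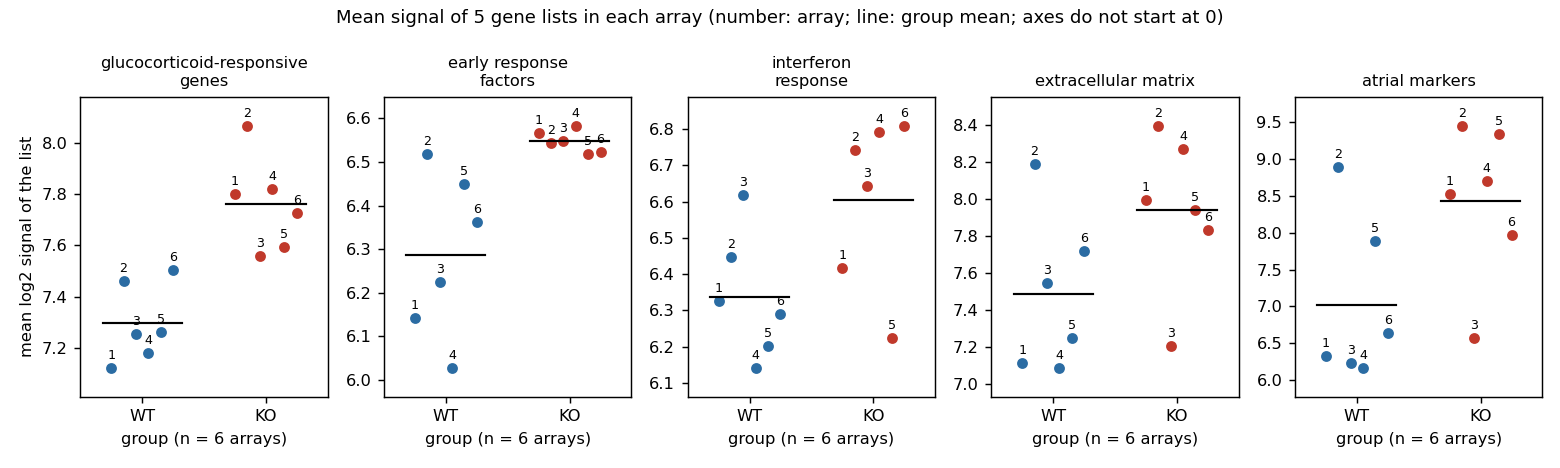
Mean log2 signal of the measured genes of 4 lists and of 14 atrial markers (vertical axes, which do not start at 0) in each of 6 WT and 6 KO arrays, with array numbers beside the points and group means as lines. The means of the glucocorticoid-responsive genes, which include the called Cdkn1a and Fam107a, do not overlap between the groups. KO arrays 1 and 5 are the lowest of the KO group for interferon genes, and KO array 3 lies with most WT arrays for atrial markers and extracellular matrix.

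Early response factors, which are transcribed within minutes of a stimulus, also held called genes. Of 25 measured, Maff and Csrnp1 were called, 12 (48.0%) were higher and 2 lower at an unadjusted p under 0.05, and the median was 0.24. The shares over all genes were 0.101% called, 7.64% higher and 3.48% lower. Maff, a small MAF protein that binds DNA without an activation domain of its own, read 4.41, 4.60 and 4.76 in WT and 4.95, 5.08 and 5.22 in KO hearts, a difference of 0.49 (SE 0.081, adjusted p = 0.0308). Csrnp1, a nuclear protein induced by AXIN1, read 5.25, 5.63 and 5.90 against 6.05, 6.22 and 6.42, a difference of 0.63 (SE 0.11, adjusted p = 0.0487). Maff lost its call without WT arrays 4 or 6 or KO arrays 1, 2, 4 or 6 (adjusted p 0.0660 to 0.0936) but was called with the atrial mean in the fit (0.60, SE 0.090, adjusted p = 0.0289). It was not called either after a new quantile normalization (adjusted p = 0.115), with trend and robust moderation (0.0520) or in the fit of all 24 arrays (0.152). Csrnp1 lost its call without WT 1, 3 or 4 or KO 1, 2, 4, 5 or 6 (0.0565 to 0.147) and had an adjusted p of 0.265 with the atrial mean (0.56) and 0.0526 with the mean of probe sets. The list's mean signal was 6.03 to 6.52 in WT arrays and 6.52 to 6.58 in KO arrays. The highest WT and the lowest KO array were equal to 2 decimals. These means include the called Maff and Csrnp1, which were separated on their own, so they do not show a separation of the list as a whole.

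The members of this group did not all point one way. Nr4a3, an orphan nuclear receptor, had a difference of 1.47 (SE 0.31, adjusted p = 0.0967), with WT arrays at 4.47, 5.00 and 6.35 and KO arrays at 5.70, 6.83 and 7.19. Atf3, a stress-induced partner of Jun, differed by 0.65 (SE 0.15, adjusted p = 0.126), Jun itself by 0.41 (SE 0.11, adjusted p = 0.206) and Fosl2, a Fos-related protein, by 0.44 (SE 0.13, adjusted p = 0.227). By contrast Egr1, a zinc finger factor of growth signals, differed by -0.46 (SE 0.13, adjusted p = 0.227) and Ccn1, a secreted matrix protein, by -0.52 (SE 0.11, adjusted p = 0.0929). Outside the list, Sik1, a kinase that cyclic AMP induces, and Noct, the clock-controlled nocturnin, were higher in all 6 KO arrays than in all 6 WT arrays, with differences of 0.65 (SE 0.13, adjusted p = 0.0812) and 0.54 (SE 0.11, adjusted p = 0.0786). When the atrial mean was added, 5 of the 25 early response genes were higher at an unadjusted p under 0.05 and the median was 0.14.

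The promoter of Maff is printed as that of the called gene with a full cyclic AMP response element, TGACGTCA. Counted by gene, this was in 1.77% of all genes with a window and in 1 of 15 called genes with a window. Maff had 3 different windows, and the first that holds the element is printed. The element, in capitals, ends 21 bases before the start that belongs to this window. The AP-1 site TGANTCA, searched alongside on both strands, was in 7.82% of all genes with a window and, of the called genes, in Csrnp1 alone. A match of letters does not show that a factor binds.
Maff (chr15:79347270-79347519, plus strand): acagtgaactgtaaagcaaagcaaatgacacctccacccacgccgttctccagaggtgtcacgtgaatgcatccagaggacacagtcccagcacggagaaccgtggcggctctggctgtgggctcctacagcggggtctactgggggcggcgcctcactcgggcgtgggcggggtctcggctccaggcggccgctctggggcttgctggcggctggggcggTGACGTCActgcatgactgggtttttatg

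The remaining called genes that rose belonged to protein quality control and signaling. Dnajb1, the heat-inducible partner of heat shock protein 70, read 6.42, 6.78 and 7.01 in WT and 7.18, 7.28 and 7.52 in KO hearts, a difference of 0.58 (SE 0.093, adjusted p = 0.03). Siah2, a ubiquitin ligase of the hypoxia response, read 6.42, 6.56 and 6.82 against 7.01, 7.09 and 7.17, a difference of 0.50 (SE 0.073, adjusted p = 0.0144). Rasgef1b, an activator of Ras-family proteins that is induced in macrophages by bacterial products, read 5.88, 6.35 and 6.49 against 6.77, 6.95 and 7.24, a difference of 0.69 (SE 0.11, adjusted p = 0.03). Vmn2r54 names a receptor of the vomeronasal organ and read 2.98 to 3.27 in WT against 3.56 to 4.03 in KO hearts, a difference of 0.71 (SE 0.091, adjusted p = 0.00704). Its mean was at the 28.5th percentile of all genes, and its many close relatives may share probes, so its identity is uncertain. Dnajb1 lost its call without WT arrays 4, 5 or 6 or KO arrays 1, 2, 4, 5 or 6 (adjusted p 0.0501 to 0.0798) and Rasgef1b without WT 1 or KO 1, 2, 5 or 6 (0.0565 to 0.0892). With the atrial mean the adjusted p of Dnajb1, Siah2, Rasgef1b and Vmn2r54 was 0.159, 0.152, 0.197 and 0.0692, at differences of 0.56, 0.42, 0.63 and 0.65. After median centring Siah2, Dnajb1, Rasgef1b, Maff, Csrnp1, Ttn and Flnc were not called. Of 32 heat shock and folding genes, 7 were higher and 3 lower at an unadjusted p under 0.05, with Dnajb1 and Hspa12a called in opposite directions. Over all genes 7.64% were higher, 3.48% lower and 0.101% called. Dnaja1, a close relative of Dnajb1, differed by 0.35 (SE 0.094, adjusted p = 0.204) and Bag3, a co-chaperone of the Z-disc, by -0.27 (SE 0.078, adjusted p = 0.227).

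Interferon-stimulated genes showed a different pattern across the arrays. None of the 29 measured was called, yet 15 (51.7%) were higher and 0 lower at an unadjusted p under 0.05, beside 7.64% and 3.48% of all genes, and the median was 0.28. Irf7, the factor that amplifies type I interferon, read 7.15, 7.25 and 7.78 in WT hearts. In KO hearts it read 8.55, 9.02, 8.64 and 8.72 in arrays 2, 3, 4 and 6 but 7.65 and 7.45 in arrays 1 and 5, which lay within the WT range. Its difference was 0.98 (SE 0.24, adjusted p = 0.151). Usp18, which removes the ubiquitin-like ISG15 and limits the response, had the same split, at 7.77, 7.79, 7.92 and 8.03 in KO arrays 2, 3, 4 and 6 and 7.05 and 6.87 in arrays 1 and 5, with WT arrays at 6.39, 7.02 and 7.18. The order within the 4 higher arrays differed between these genes. Its difference was 0.71 (SE 0.21, adjusted p = 0.229). Irf9, the DNA-binding subunit of the interferon-activated complex, differed by 0.33 (SE 0.086, adjusted p = 0.186), Mx2, an antiviral GTPase, by 0.55 (SE 0.17, adjusted p = 0.254) and Oas3, a sensor of double-stranded RNA, by 0.37 (SE 0.11, adjusted p = 0.269). Ifit1 and Ifit3, which bind foreign RNA, differed by 0.58 (SE 0.22, adjusted p = 0.362) and 0.54 (SE 0.21, adjusted p = 0.346). The mean of the list was 6.14 to 6.62 in WT and 6.22 to 6.81 in KO arrays, with KO arrays 1 and 5 at 6.42 and 6.22 and WT array 3 at 6.62. The atrial means of KO arrays 1 and 5 were 8.53 and 9.34, and that of WT array 3 was 6.23. In KO arrays 2, 3, 4 and 6 they were 9.45, 6.56, 8.70 and 7.97. With the atrial mean in the fit 12 of the 29 were higher at an unadjusted p under 0.05 at a median of 0.23. In newborn hearts the median of the list was -0.0077.

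The promoters of Ifit1 and Ifit3 are shown for a sequence found in some members of this list. The core of the interferon-stimulated response element, GAAANNGAAA on either strand, was in 10 of 21 list members with a window (47.6%). It was in 3.46% of all genes with a window and in 0 of 15 called genes with one. The 10 were Ifit1, Ifit3, Isg15, Oas1a, Oas3, Rsad2, Stat2, Gbp2, Gbp3 and Trim30a. Both promoters below hold 2 copies, in capitals, read on the opposite strand.
Ifit1 (chr19:34640639-34640888, plus strand): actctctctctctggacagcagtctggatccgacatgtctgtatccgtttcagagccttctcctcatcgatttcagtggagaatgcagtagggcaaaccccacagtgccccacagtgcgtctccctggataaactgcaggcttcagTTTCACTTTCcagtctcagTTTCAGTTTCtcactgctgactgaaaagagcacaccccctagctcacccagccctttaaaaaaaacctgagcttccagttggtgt
Ifit3 (chr19:34583279-34583528, plus strand): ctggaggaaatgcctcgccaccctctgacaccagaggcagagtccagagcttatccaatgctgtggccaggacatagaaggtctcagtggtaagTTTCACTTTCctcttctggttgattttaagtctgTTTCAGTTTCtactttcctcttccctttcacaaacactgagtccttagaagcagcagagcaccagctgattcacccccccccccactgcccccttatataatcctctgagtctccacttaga

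Among the genes that separated the genotypes without being called, the largest difference belonged to Wdfy1, an endosomal adaptor of Toll-like receptor signaling. WT arrays were close together at 6.57 to 6.79, and KO arrays 2, 4 and 6 read 6.06, 6.27 and 6.34 while KO arrays 1, 3 and 5 read 5.11, 4.69 and 4.43. The mean difference was -1.24 (SE 0.29, adjusted p = 0.141), and it was -0.98 in newborn hearts (SE 0.36). Sox4, a developmental transcription factor, read 7.34, 7.60 and 7.85 against 6.30, 6.98 and 7.14, a difference of -0.75 (SE 0.15, adjusted p = 0.0786). Usb1, which trims the end of U6 RNA and lies near Ndrg4 on chromosome 8, differed by -0.49 in young hearts (SE 0.099, adjusted p = 0.0786) and -0.55 in newborns. Epb41l4a, a protein of the submembrane skeleton, differed by -0.48 (SE 0.095, adjusted p = 0.0786) and -0.60 in newborns. Gucy1a2, a subunit of the nitric oxide receptor, and Thnsl1, a threonine synthase-like protein, had a difference of -0.42 each and values near 0 in newborns (-0.03 and -0.0011). On the other side Stum differed by 0.69 (SE 0.13, adjusted p = 0.0708), A2m, a protease inhibitor of plasma, by 0.66 (SE 0.17, adjusted p = 0.179) and Diras2, a small GTPase, by 0.55 (SE 0.12, adjusted p = 0.118). Nearest to the threshold, at an adjusted p of 0.0525 each, stood Slc3a2, the heavy chain of an amino acid transporter (0.45), Clec10a, a macrophage lectin (0.71), and Dync1h1, the dynein heavy chain (-0.40).

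Lists of cell types and pathways differed in how far they moved with the atrial transcripts. Extracellular matrix genes (66 measured) had a median of 0.45, with 28 (42.4%) higher and 3 lower at an unadjusted p under 0.05, and fibroblast markers (19) a median of 0.48, with 9 (47.4%) higher, where 7.64% of all genes were. Both had 0 called. With the atrial mean in the fit these medians were 0.022 and 0.018, and the epicardial median went from 0.77 to -0.098. The medians of the glucocorticoid-responsive (0.40 to 0.27) and interferon lists (0.28 to 0.23) moved less. The atrial mean is itself measured in the same arrays and differs between the groups, so the covariate can also take up genotype differences. Of the 19 called genes all had the same direction and an unadjusted p under 0.05 with the covariate, and 6 were called, Ndrg4, Hspa12a, Aga, Sfxn4, Tmem100 and Maff. The matrix count followed single arrays, at 41 higher without WT array 2 or KO array 3 and 10 without WT arrays 1 or 4 or KO arrays 2 or 4.

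**Figure D3:**
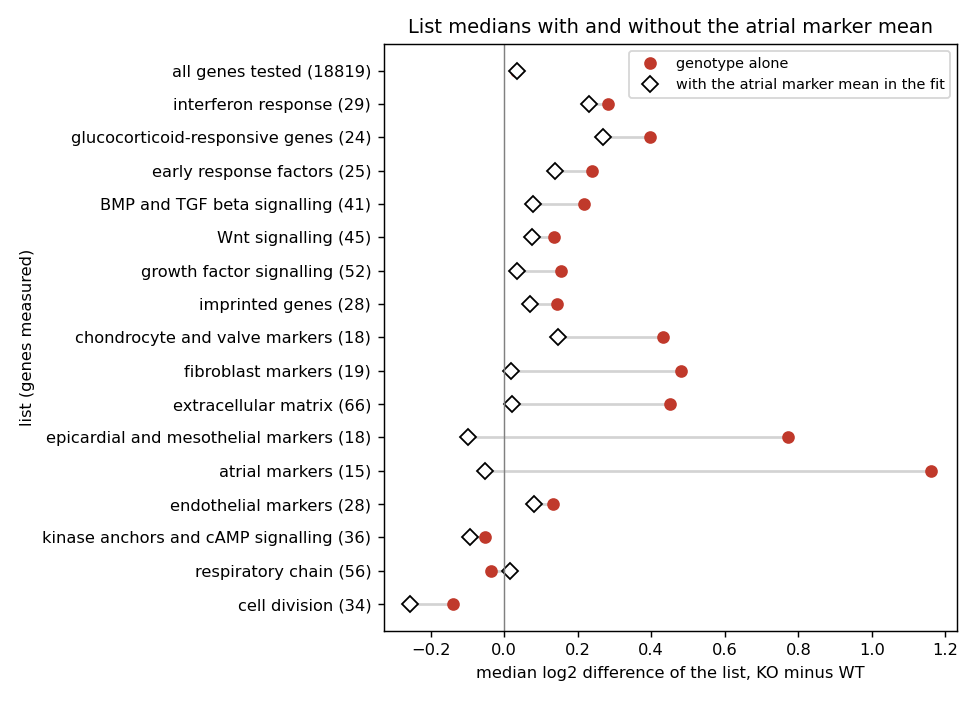
Median log2 difference, KO minus WT, of 16 gene lists and of all genes (genes measured in brackets) with genotype alone (filled circles) and with the atrial mean of 14 markers added (open diamonds). The epicardial, fibroblast and matrix medians lie near 0 with that mean, while the glucocorticoid-responsive and interferon medians are 0.27 and 0.23.

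Apoptosis, energy metabolism, protein synthesis and immune cell lists held no called gene. Among 8 measured caspases 0 had an unadjusted p under 0.05, and among 29 apoptosis regulators 2 were higher and 2 lower. For this and the counts below, 7.64% of all genes were higher, 3.48% lower and 0.101% called. The nearest to a call was Bcl2l1, which encodes the survival protein BCL-XL, at 0.44 (SE 0.094, adjusted p = 0.0967). Of 56 respiratory chain genes 0 had an unadjusted p under 0.05 in either direction, with a median of -0.036 and differences between -0.23 and 0.13. For 32 genes of fatty acid and ketone oxidation the median was -0.035 and for 36 of glycolysis and glucose uptake -0.069, with 2 higher and 2 lower, and 1 higher and 3 lower, at an unadjusted p under 0.05. The 45 cytosolic ribosomal proteins had a median of 0.0014 and the 34 proteasome subunits one of -0.021. Macrophage markers (26) had a median of 0.15 with 3 higher and 1 lower, and lymphocyte markers (24) one of 0.020 with 1 higher and 2 lower.

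The young differences were then set beside those of newborn hearts, in which limma called 0 genes (smallest adjusted p = 0.101), from a fit of all 24 arrays. The 19 young calls came from the 12 young arrays alone, and this fit of 24 called 192 for young hearts. The paper reports lower expression of DNA replication and cell cycle genes in newborn KO hearts, with quantitative PCR of selected genes. Here the newborn median of the 34 cell division genes was -0.68, against -0.049 over all genes. Of the 19 genes, 15 had the same sign in newborns. Maff (0.52, SE 0.17), Cdkn1a (0.60, SE 0.18), Tmem100 (0.45, SE 0.15), Ndrg4 (-0.61, SE 0.16), Hspa12a (-0.52, SE 0.13), Aga (-0.20, SE 0.091), Fbxo8 (-0.35, SE 0.08) and Sfxn4 (-0.81, SE 0.21) were among those with newborn values more than 2 SE from 0. Dnajb1 (-0.01, SE 0.08) and Vmn2r54 (0.03, SE 0.09) were near 0 at that age. The difference between the ages was itself called for 2 genes of 18819 (0.0106%). Sh3rf2 had a newborn difference of 0.37 (SE 0.17), so its effect at one month was lower by 1.68 (adjusted p = 0.00789), and Flnc had one of 0.12 (SE 0.07), lower by 0.62 at one month (adjusted p = 0.0303). For the other 17 called genes the difference between the ages did not pass in this fit. Ttn, Dnajb1 and Vmn2r54 came nearest, with an adjusted p of 0.0594 each, and Ndrg4 had 0.0985. The number of genes called for this difference ran from 1 to 24 under other settings.

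**Figure D4:**
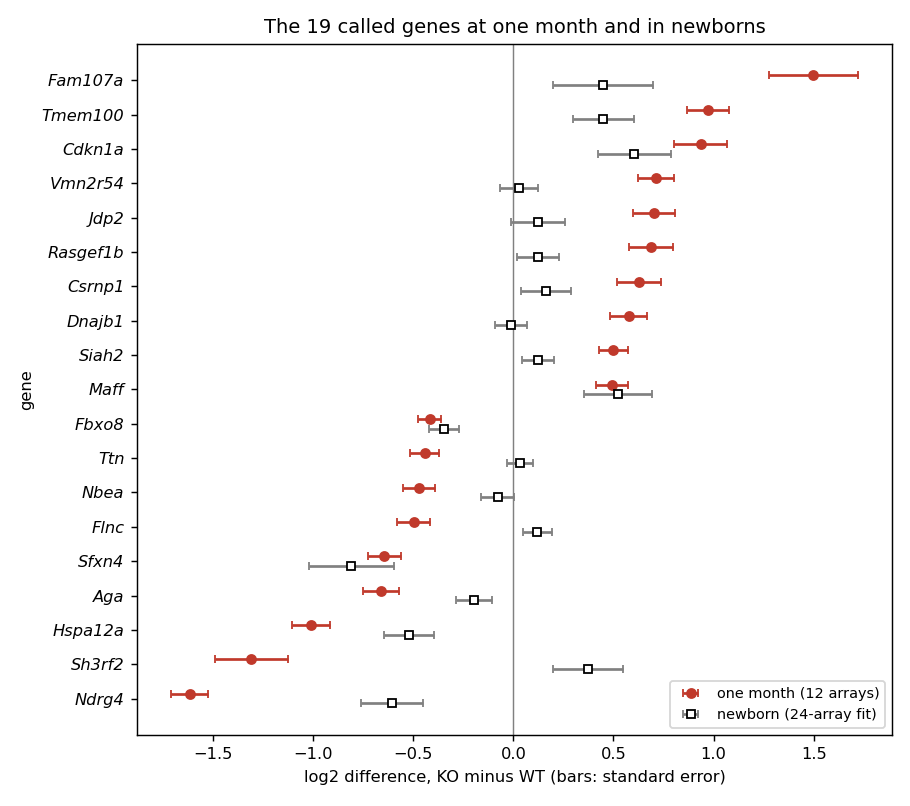
Log2 difference, KO minus WT, of the 19 called genes at one month (filled circles, fit of 12 arrays) and in newborns (open squares, fit of 24 arrays), with standard errors as bars. Sh3rf2 lies at -1.31 at one month and at 0.37 in newborns, and Maff, Fbxo8 and Sfxn4 have similar values at both ages.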

How the data were processed

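RNA of ventricle tissue was measured on whole-transcript Affymetrix mouse arrays, 1 array per heart. The authors deposited log2 signals from RMA (background correction, equalization of arrays and summary over probes), and the submitters' processing notes name oligo 1.22, limma 3.14 and R 2.15. Equalizing the arrays hides a change shared by most genes. The supplement that describes the microarray statistics was not used here. The 12 young arrays were fitted alone with limma 3.58.1 in R 4.3.3 (genotype only, moderated variances, two-sided, Benjamini-Hochberg over all genes, adjusted p under 0.05), and all 24 arrays for the newborn values and the difference between ages. The number of arrays limits the precision, and whether the hearts of a group came from separate litters is not given.

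Of 35017 probe sets, 21118 named 1 gene, 1735 several and 12164 none, and 21085 were matched by Entrez identifier to the GRCm38.p6 annotation, where 0 symbols changed. The brightest probe set stood for a gene, which mattered for 1371 genes. Promoters came from the RefSeq table for GRCm38.p6, and 15 of the 19 called genes had one. The array's build is not given in the sources used here, so chromosomes and gene order were taken from that annotation.

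Members and the 52 gene lists (1473 of 1617 entries measured, 15 lists of cell types) were chosen with earlier results of these data known. Genes eligible by rule were the called genes, up to 15 genes per direction whose groups do not overlap, the 2 members of smallest p of a list and genes the paper names for young hearts. The text names all called genes and leaves out some of the rest, Myh11, Hand2 and Gata5 among them. Other list members and the 3 genes nearest the threshold were named after their values were seen. Results that need the deleted genes are not reported here. A planned list of large proteins was not made because no protein table was used. The procedure was tested on simulated data. Alternatives were a filter at the 30th percentile of signal, a fold change of 1.5, an adjusted p under 0.01, median centring, quantile normalization, limma's trend and robust options, weights for arrays, a block for the replicate number, the mean over probe sets or all of them, all 24 arrays, the atrial mean as a covariate, and each array left out in turn.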

Additional observations from a re-analysis of the deposited data

Results flagged for a closer look

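The effect of the knockout differed between the ages for 2 genes, by the interaction term of the fit of all 24 arrays. The effect at one month minus the newborn effect was -1.68 for Sh3rf2 (adjusted p = 0.00789) and -0.62 for Flnc (adjusted p = 0.0303), both with limma. In 5 of 158 groups of 6 arrays, over the 79 genes named, a single array lay apart from its group by Dixon's criterion, where about 1 in 20 groups would by chance. These were Nr3c1 in KO array 5, at 7.79 with the next array at 8.09, and Slc3a2 in KO array 2, at 10.29 with the next at 10.13. In WT hearts they were Id1 in array 6 (8.0, next 7.8), Thnsl1 in array 1 (6.07, next 5.78) and Wdfy1 in array 4 (6.57, next 6.71).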

How the results depend on the processing

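All 19 called genes had the same direction under every alternative, and 10 were called with each array left out in turn. Ndrg4, Hspa12a, Tmem100 and Aga were called under all alternatives run on single genes. The total of 19 (10 higher, 9 lower) became 12 with a fold change of at least 1.5 (5 lower), 8 at an adjusted p under 0.01 (2 higher), 31 after quantile normalization (12 higher, 19 lower), 49 with a variance trend and robust moderation (24 and 25), 47 with array weights (27 and 20), 192 with all 24 arrays (126 and 66) and 9 with the atrial mean (4 and 5). It was 16 after median centring (7 and 9). Leaving out 1 array gave 10 to 78 calls, 4 to 63 higher and 6 to 15 lower. The count for the difference between ages was 7 with the signal filter, 1 at an adjusted p under 0.01, 1 after centring, 4 after quantile normalization, 9 with trend and robust moderation, 15 with array weights and 1 to 24 with 1 array left out. The atrial difference of 1.40 passed the exact permutation test after centring (1.33, p = 0.0498) and with the mean of probe sets (1.30, p = 0.0498), and with 1 array left out it ran from 1.2 to 1.78. With the atrial mean as covariate the medians of the matrix, epicardial and atrial lists were 0.022, -0.098 and -0.053, and Casp12 (-0.096), Fads2 (-0.056), Retn (-0.037), Tpm2 (-0.080) and Nppa (-0.11) turned from higher to lower. Centring lowered all list medians by the same amount, so that the heat shock, ribosomal protein and ubiquitin ligase medians became -0.038, -0.067 and -0.065. The cause of the changed counts was not tested. Dim genes are measured near background and their differences are compressed.

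Arrays with the same number in both groups were not treated as pairs, because the labels name no shared source and the correlation of their deviations was not positive throughout. It was 0.082, 0.645, 0.122, -0.222, 0.200 and 0.097 for numbers 1 to 6, and 4 of the 6 WT arrays correlated best with the KO array of their own number. With the number as a replicate block limma called 29 genes (21 higher, 8 lower), 12 of them among the 19 (Fbxo8, Dnajb1, Maff, Ttn, Flnc, Nbea and Csrnp1 were not), and 1 gene for the difference between ages, and the exact paired test of the atrial difference of 1.40 gave p = 0.031, the smallest 6 pairs allow.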
